A study of Mus musculus with 16 samples.

Results

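The comparison is between the H3K4me3 peak lists of arid4b-delta endoderm and arid4b-delta mesoderm, 2 of the 16 samples of a ChIP-seq series in mouse embryonic stem cells of the CJ9 line. Its members were taken from the labels as the H3K4me3 libraries of that genotype, with 1 library on each side, and not by any measured value. The cells carry the genotype arid4b-delta, written arid4b∆ in the sample titles. They were differentiated for 5 days towards endoderm in one sample and towards mesoderm in the other, then fixed with formaldehyde for 8 min. H3K27ac and H3K27me3 lists from the same genotype and lineages, and the H3K4me3 lists of wild-type (WT) CJ9 cells differentiated to the same lineages, are given beside it. Nothing in the labels states how much of Arid4b was removed, whether 1 clone or several were used, or whether the libraries came from separate cultures. With 1 library a side no difference was tested and no p-value is given. A peak list holds no read totals, so the depth of each library is unknown, and the exact 95% Clopper-Pearson intervals printed here cover counting error only.

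H3K4me3 is trimethylation of lysine 4 of histone H3, a mark laid down around transcription start sites, most of all where the DNA is rich in CpG dinucleotides. It is found at active promoters, which also carry acetylated H3K27, and at the poised or bivalent promoters of developmental regulators in stem cells, which also carry the Polycomb mark H3K27me3. Arid4b is a subunit of the Sin3 corepressor complex, whose histone deacetylases strip acetyl groups from chromatin. Endoderm gives rise to gut, liver and pancreas, and mesoderm to muscle, heart, blood and kidney.

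A promoter was the 1000 bp on either side of the annotated start of a protein-coding gene in build mm10, and it was called marked when a peak overlapped that window by at least 1 bp. The 250 bases upstream of 6 starts are printed first, as examples and not as typical of their classes. They belong to 2 promoters marked in mesoderm only, 2 marked in endoderm only and 2 marked in both. They come from RefSeq (build GRCm38.p6, which is mm10), read 5′ to 3′ on the strand of the gene and end at the base before the start. Capitals mark each CG dinucleotide, the sequence feature most tied to this mark. Hoxa6 (chr6:52208673-52208922, minus strand), a homeobox gene of the trunk, and Cldn1 (chr16:26371840-26372089, minus strand), which encodes the tight junction protein claudin 1, were marked in mesoderm only. Zfp819 (chr7:43606919-43607168, plus strand), a zinc finger gene, and Gnmt (chr17:46729166-46729415, minus strand), which encodes glycine N-methyltransferase, were marked in endoderm only. T (chr17:8434173-8434422, plus strand), which encodes the primitive streak factor brachyury, and Eomes (chr9:118477939-118478188, plus strand), a T-box gene of streak and endoderm, were marked in both.
Hoxa6: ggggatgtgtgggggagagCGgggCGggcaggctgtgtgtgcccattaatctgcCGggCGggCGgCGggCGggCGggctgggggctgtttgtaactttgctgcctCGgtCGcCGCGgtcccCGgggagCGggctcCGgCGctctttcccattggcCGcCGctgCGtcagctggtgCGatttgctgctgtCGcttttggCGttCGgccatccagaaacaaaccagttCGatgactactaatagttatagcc
Cldn1: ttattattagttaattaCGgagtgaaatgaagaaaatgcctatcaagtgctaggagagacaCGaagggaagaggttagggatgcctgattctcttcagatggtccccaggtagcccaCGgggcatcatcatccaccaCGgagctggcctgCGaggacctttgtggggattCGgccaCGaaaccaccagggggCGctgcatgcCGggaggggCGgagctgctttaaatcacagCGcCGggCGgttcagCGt
Zfp819: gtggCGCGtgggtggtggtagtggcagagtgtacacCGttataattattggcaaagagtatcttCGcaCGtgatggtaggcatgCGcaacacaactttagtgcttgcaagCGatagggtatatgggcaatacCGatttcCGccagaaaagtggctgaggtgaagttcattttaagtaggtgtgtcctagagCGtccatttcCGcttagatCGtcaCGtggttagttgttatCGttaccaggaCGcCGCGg
Gnmt: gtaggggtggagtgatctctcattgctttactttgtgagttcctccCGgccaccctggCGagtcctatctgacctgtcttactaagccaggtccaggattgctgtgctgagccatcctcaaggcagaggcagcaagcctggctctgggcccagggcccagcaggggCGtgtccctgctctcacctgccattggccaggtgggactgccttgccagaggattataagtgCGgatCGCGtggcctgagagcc
T: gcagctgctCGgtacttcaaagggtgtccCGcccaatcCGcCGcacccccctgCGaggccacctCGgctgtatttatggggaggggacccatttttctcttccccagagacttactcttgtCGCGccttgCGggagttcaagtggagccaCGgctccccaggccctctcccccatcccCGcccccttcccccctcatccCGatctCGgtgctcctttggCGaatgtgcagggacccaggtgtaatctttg
Eomes: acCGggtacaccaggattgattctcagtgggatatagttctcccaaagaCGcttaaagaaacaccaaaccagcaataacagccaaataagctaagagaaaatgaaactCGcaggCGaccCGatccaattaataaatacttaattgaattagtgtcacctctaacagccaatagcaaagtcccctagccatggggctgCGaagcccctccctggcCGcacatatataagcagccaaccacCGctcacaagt
The Hoxa6 stretch holds 24 CG dinucleotides, Zfp819 17, Cldn1 14, T 14, Eomes 8 and Gnmt 6. In the Hoxa6 stretch 54 bases lay under the mesoderm peak and 0 under an endoderm peak, while in Zfp819 64 bases lay under the endoderm peak and 0 under a mesoderm peak. The Cldn1 and Gnmt stretches lay outside their peaks, which sat downstream of the start. In the T stretch 192 bases lay under the endoderm peak and 250 under the mesoderm peak, and in Eomes all 250 lay under a peak in both lineages.

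Few promoters carried H3K4me3 in one lineage and not in the other. Of 21887 protein-coding genes, 13179 (60.2%) had a marked promoter in endoderm and 13390 (61.2%) in mesoderm, and 13101 had one in both. The shared promoters made up 99.4% of the endoderm set and 97.8% of the mesoderm set. Marked in endoderm only were 78 promoters, or 0.356% of all genes, and in mesoderm only 289, or 1.32%. Mesoderm thus held 78.7% (95% interval 74.2 to 82.8) of the 367 promoters marked in one lineage only. With the upper 50% of each list alone the counts were 349 and 901, and with peaks of at least 500 bp they were 130 and 515. For 2646 genes the start was the gene end with more H3K4me3 in the lists, so a one-lineage peak could itself place the promoter. Among one-lineage genes named below these were Pappa, Actb, Slc47a1, Hoxc10, Hoxc12, Cdx1, Dnd1, Esam, Gdf3, Plat, Ash2l, Lamc3, Nat2, Trpa1 and Riiad1. With only starts from the promoter table, an unplanned alternative, the counts were 57 and 200. In WT cells 102 promoters (0.466%) were marked in endoderm only and 648 (2.96%) in mesoderm only. Of all promoters marked in at least one lineage, 2.72% differed between lineages in arid4b-delta and 5.89% in WT, and this difference between genotypes was not tested.

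The promoters that differed between lineages in WT cells were mostly marked in both lineages in arid4b-delta. Of the 648 promoters marked in mesoderm only in WT, 593 (91.5%) were marked in both lineages in arid4b-delta, 32 in mesoderm only, 7 in endoderm only and 16 in neither. Of the 102 marked in endoderm only in WT, 93 (91.2%) were marked in both. In turn, 69 of the 78 endoderm-only promoters of arid4b-delta (88.5%) and 243 of its 289 mesoderm-only promoters (84.1%) were in neither WT list. The arid4b-delta lists were the longer ones, with 25272 endoderm and 26852 mesoderm peaks, and the part of list length in these counts was not tested.

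The peaks behind the promoters marked in one lineage only were narrow and stood low in their own lists. Endoderm-only promoters had peaks of 184 bp and 4.88-fold enrichment at the median, mesoderm-only promoters peaks of 238 bp and 5.01-fold. The fold enrichment is the authors' value for each peak over its background and ranks peaks within a list, where rank 1 is the highest. Folds from different lists are printed as values and are not a comparison of level. The median fold was 11.4 in endoderm and 10.9 in mesoderm, and 8.43 and 9.32 in WT. The median rank was 21359.5 of 25272 in endoderm and 21438 of 26852 in mesoderm. Only 4 endoderm-only and 7 mesoderm-only promoters had a peak in the upper 50% of their list. All 4, and 6 of the 7, lay at the edge of the window: a peak of the other lineage began 1054 to 1230 bp from the start. Actb, which encodes beta-actin, was one of them, at 33.9-fold and rank 217 in mesoderm, with the nearest endoderm peak 1171 bp from its annotated start. The exception was Pappa. No peak of the other lineage lay within 5000 bp of 63 endoderm-only and 243 mesoderm-only starts.

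Pappa, which encodes a secreted metalloprotease that cleaves insulin-like growth factor binding proteins, was the highest-ranked promoter of mesoderm only with no endoderm peak near it. Its mesoderm peak (chr4:65124535-65125159, 625 bp) had 14.3-fold enrichment and rank 10870 of 26852, and the nearest endoderm peak lay 480768 bp away. In WT cells the same promoter had peaks in both lineages, at 3.30-fold in endoderm and 6.92-fold in mesoderm. The next were H2ac1 and H2bc1, a pair of neighbouring histone genes under 1 peak (chr13:23933716-23934017) at 9.60-fold and rank 14492, also marked in both WT lineages. H3K27ac lay there in both arid4b-delta lineages, at 28.3-fold in endoderm and 46.5-fold in mesoderm. Plpp4, a lipid phosphatase gene, followed at 9.57-fold and rank 14565, and Tlcd2 at 9.02-fold and rank 14989. Bhlhe23, a basic helix-loop-helix factor gene of the nervous system, had the widest peak of these at 883 bp (chr2:180776233-180777115), at 8.99-fold and rank 15080. Npffr1, a neuropeptide receptor gene, was at 8.73-fold and rank 15247, and Slc47a1 and Slc47a2, neighbouring genes of organic cation exporters, shared a peak at 7.85-fold and rank 16168. Pappa, Plpp4, Bhlhe23, Npffr1, Slc47a1 and Slc47a2 carried H3K27me3 in both lineages, and Tlcd2, H2ac1 and H2bc1 in neither.

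The endoderm-only promoters with no mesoderm peak near them ranked lower. Zfp819 led, with a peak at chr7:43607105-43607344 (240 bp, 7.51-fold, rank 16361 of 25272) and the nearest mesoderm peak 26316 bp away. Gnmt, whose product uses S-adenosylmethionine to methylate glycine in liver, had a peak at chr17:46728883-46729142 (260 bp, 7.21-fold, rank 16738). Pifo, a gene of primary cilia, was at 6.81-fold and rank 17278 and was the only one of the 10 highest named genes with a WT peak, at 4.30-fold in endoderm. Arhgap36 on the X chromosome was at 6.66-fold and rank 17477. B3galt5, a glycosyltransferase gene, and Lamc3, a laminin chain gene, were both at 6.01-fold, and these were the only 2 of the 10 with H3K27me3. Nat2 was at 5.85-fold, and Trpa1, Hmox2 and Riiad1 were each at 5.75-fold. The Hmox2 peak (chr16:4756960-4757228) lay at an internal start. The starts used for Hmox2 began at 4741613, while the annotated gene begins at 4726361. A mesoderm peak lay 14343 bp from the nearest start used, and whether it marks the beginning of the gene was not examined. The Hmox2 row thus does not show that the gene lacks the mark in mesoderm.

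Over the whole genome, sharing followed rank. Of 25248 endoderm peaks on chromosomes 1 to 19, X and Y, 23492 (93.0%, interval 92.7 to 93.4) overlapped a mesoderm peak and 1756 (6.96%) did not. Of 26825 mesoderm peaks, 21857 (81.5%, 81.0 to 81.9) overlapped an endoderm peak and 4968 (18.5%) did not. In WT 6.06% of endoderm and 19.4% of mesoderm peaks did not overlap the other lineage's list. In the upper 50% of each list only 1 endoderm peak of 12631 and 2 mesoderm peaks of 13422 had no overlap. The endoderm one (chr11:95991169-95991394, rank 12498, 11.5-fold) was 80 bp from a mesoderm peak, 14550 bp from the start of Igf2bp1, and the mesoderm ones were the Pappa peak and a peak over an annotated start of Cacna1d, 153 bp from an endoderm peak. Below that the lines parted. In the lowest decile 72.6% of endoderm peaks and 38.6% of mesoderm peaks were shared, as the plot of sharing by rank shows.

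**Figure D1:**
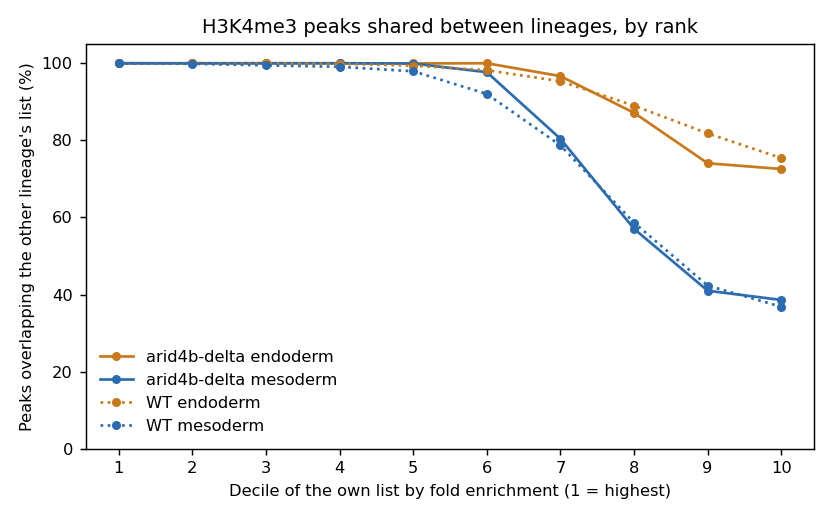
The share of peaks (y axis, percent) that overlap the other lineage's list, by decile of the own list ranked by fold enrichment (x axis, 1 is the highest), for 1 library per line. Solid lines are arid4b-delta and dotted lines WT; sharing stays close to 100% through decile 5 in arid4b-delta and falls to 72.6% of endoderm and 38.6% of mesoderm peaks in decile 10.

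Peaks of one lineage only had a median width of 178 bp in endoderm and 199 bp in mesoderm, against 751 and 919 bp for shared peaks. Their median fold was 4.58 and 4.65, against 12.4 and 14.2. They covered 1.68% of the bases under endoderm peaks and 4.85% of those under mesoderm peaks. Many lay beside a peak of the other lineage: 1031 of the endoderm-only peaks (58.7%) and 2415 of the mesoderm-only peaks (48.6%) were within 1000 bp of one. More than 5000 bp from any peak of the other lineage were 612 (34.9%) and 2128 (42.8%).

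Peaks at promoters were shared most often. Within 1000 bp of a start, 441 endoderm peaks (2.56%) and 1235 mesoderm peaks (7.29%) had no overlap. Between 1000 and 5000 bp these shares were 13.1% and 37.4%, and beyond 50000 bp they were 23.2% and 46.5%. The distant peaks of one lineage with the highest ranks and no peak of the other within 5000 bp were not strong ones. In mesoderm the first lay 13560 bp from the start of Dnah7b (10.5-fold, rank 13773) and in endoderm 45050 bp from the start of Prss23 (8.41-fold, rank 15304). On the X chromosome 72 of 963 endoderm peaks (7.48%) and 283 of 1104 mesoderm peaks (25.6%) had no overlap. The WT shares on X were 9.28% and 25.5%.

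H3K27ac marks active enhancers as well as promoters. Of the 995 endoderm-only H3K4me3 peaks more than 5000 bp from any start, 53.0% (49.8 to 56.1) overlapped endoderm H3K27ac and 41.7% (38.6 to 44.8) mesoderm H3K27ac. Of the 2686 mesoderm-only ones, 1343 overlapped endoderm H3K27ac (interval 48.1 to 51.9%) and 1099 mesoderm H3K27ac (40.9%, 39.05 to 42.8). Of the shared distal peaks in the endoderm list, 40.1% overlapped endoderm H3K27ac and 40.3% mesoderm H3K27ac, and in the mesoderm list 42.1% and 41.7%. One-lineage distal peaks of both lists thus overlapped endoderm H3K27ac more often than shared ones did, and mesoderm H3K27ac about as often. The endoderm H3K27ac list was the longer, with 35884 peaks over 11.2 Mb against 22747 over 8.57 Mb in mesoderm. The part of list length in these shares was not tested. For H3K27me3 the shares were lower than in shared distal peaks: 13.2% against 27.03% for endoderm peaks with endoderm H3K27me3, and 13.4% against 23.8% for mesoderm peaks with mesoderm H3K27me3. Over all distances one-lineage peaks were narrower than shared ones, with medians of 178 against 751 bp in endoderm and 199 against 919 bp in mesoderm. The part of width in these overlaps was not tested.

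Promoters of one lineage had less H3K27ac than the shared ones, and the mesoderm-only ones more H3K27me3. Of the promoters with H3K4me3 in both lineages, 43.8% carried H3K27ac in endoderm and 53.1% in mesoderm. Of the 289 mesoderm-only promoters, 3.81% and 4.50% did, and of the 78 endoderm-only promoters 5.13% and 3.85%. H3K27me3 lay at 49.8% (43.9 to 55.7) of the mesoderm-only promoters in endoderm and at 50.9% (44.9 to 56.8) in mesoderm, against 23.6% and 22.8% of the shared promoters. At the endoderm-only promoters it lay at 34.6% (24.2 to 46.2) and 32.1% (21.9 to 43.6), and the second interval holds the share of the shared promoters. Promoters with no H3K4me3 in either lineage had H3K27me3 in 4.93% and 3.99%. For the mesoderm-only promoters, both H3K27me3 shares are of the same 289 promoters. The intervals thus do not measure a difference between lineages, which was not tested. Neighbouring promoters can also lie under the same broad H3K27me3 peak. The H3K27me3 lists held peaks down to 1.00-fold in both lineages, so some of these calls may lie near background.

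**Figure D2:**
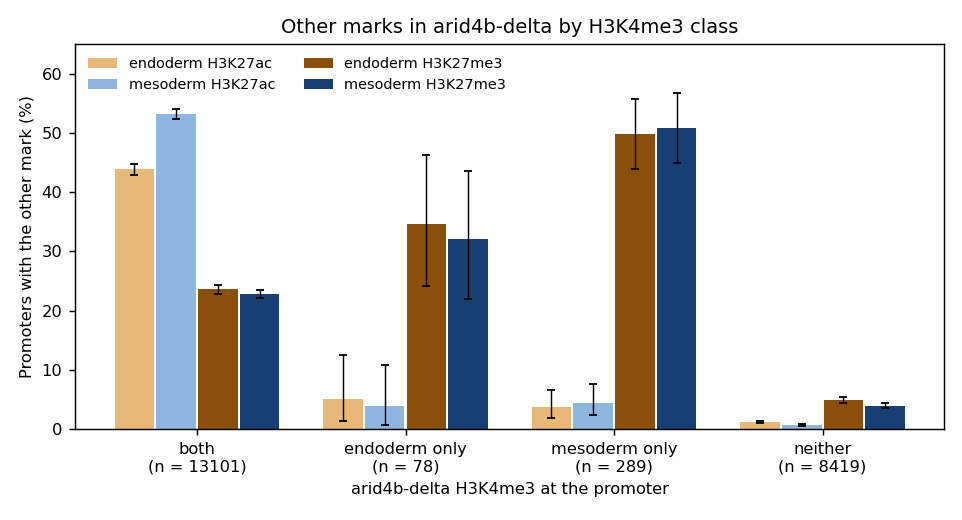
The share of promoters (y axis, percent) with an arid4b-delta H3K27ac or H3K27me3 peak, by the lineages in which the promoter had H3K4me3 (x axis, number of promoters in brackets). Bars are 1 library each and error bars exact 95% binomial intervals; the mesoderm-only promoters stand at 49.8% and 50.9% for H3K27me3 and under 5% for H3K27ac.

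The promoters of one lineage held fewer CG dinucleotides than the shared ones. In the 250 bases upstream of the start, the shared promoters had a median of 17 (10568 with a sequence), the mesoderm-only ones 8.5 (200), the endoderm-only ones 7 (57), and those marked in neither lineage 2 (6667). Over all 17492 sequences the median was 10, and 92.7% held at least 1 CG. The 6 stretches printed above do not show this order. Hoxa6 (24), Cldn1 (14) and Zfp819 (17) lay above the median of their class, and Gnmt (6), T (14) and Eomes (8) below it. CG was searched for as these 2 letters, which read the same on both strands.

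By gene role, marks for endoderm genes were no more frequent in endoderm. Among 512 listed genes 405 had a marked promoter in endoderm and 423 in mesoderm, with 2 (0.391%) in endoderm only and 20 (3.91%) in mesoderm only. Over all genes these shares were 0.356% and 1.32%. Of 24 definitive endoderm genes 17 were marked in endoderm and 19 in mesoderm, Pyy being among the 2 more. Of 65 genes of paraxial and intermediate, cardiac and lateral, and blood and endothelial mesoderm, 45 were marked in endoderm and 48 in mesoderm, the 3 more being Bmp4, Nkx2-5 and Esam. In WT these counts were 15 and 13 for the endoderm genes and 31 and 42 for the mesoderm genes.

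**Figure D3:**
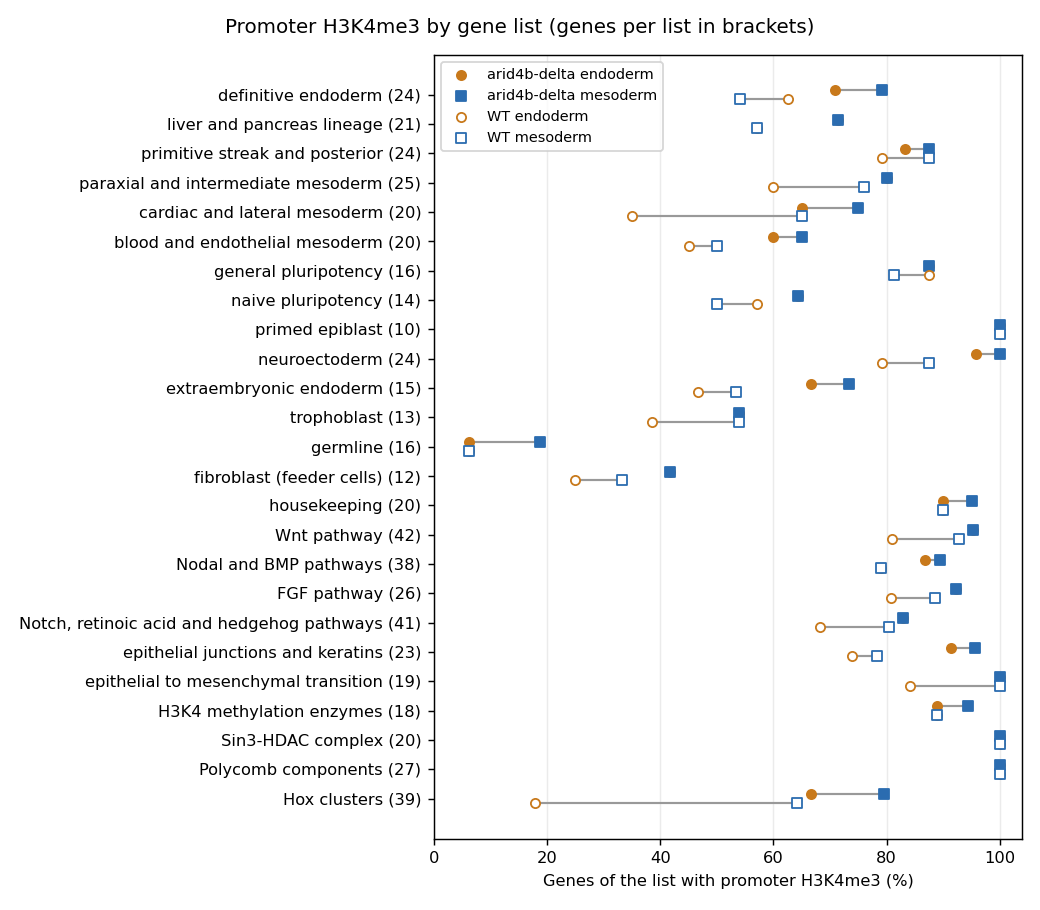
The share of each gene list (x axis, percent; list sizes in brackets) with promoter H3K4me3, from 1 library per point. Filled points are arid4b-delta and open points WT, circles endoderm and squares mesoderm, and where both lineages have the same share the square covers the circle; in the Hox clusters arid4b-delta endoderm has 26 of 39 and WT endoderm 7 of 39.

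H3K27ac was infrequent at the markers of both lineages. Over all promoters it lay at 26.8% in endoderm and 32.2% in mesoderm. It lay at 4 of the 24 definitive endoderm promoters in endoderm (Otx2, Cldn6, Epcam and Cdh1) and at 5 in mesoderm (the same 4 and Krt18). At the 65 mesoderm promoters it lay at 0 in endoderm and at 3 in mesoderm (Eya1, Kit and Klf1). At the 16 general pluripotency promoters it lay at 12 in endoderm and 13 in mesoderm. What share of the cells in each culture had reached the labelled lineage was not tested.

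Among the factors that define endoderm, Sox17 had a narrow peak in both lineages, of 385 bp at 6.10-fold (rank 18320) in endoderm and 648 bp at 6.44-fold (rank 18047) in mesoderm. In WT it had none in the window, with a mesoderm peak 1025 bp from the start. Foxa2, a pioneer factor of foregut, was at 10.3-fold (rank 13500) and 11.9-fold (rank 12622). Gata6 was at 13.6-fold (rank 10766, 1404 bp) and 12.0-fold (rank 12557, 1223 bp). Gata4 had no peak in the window in either, with the nearest 4512 and 4464 bp from the closer annotated gene end, whose strand is not given in the table used. Foxa1 was at 8.53-fold and 14.5-fold, Hhex at 18.2-fold and 25.6-fold, Cxcr4 at 13.6-fold and 14.2-fold and Gsc at 13.6-fold and 13.4-fold, so that each was marked in both lineages. Pyy, which encodes a gut hormone, had a mesoderm peak at 4.81-fold and rank 22186, with the nearest endoderm peak 18224 bp away.

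Among streak and mesoderm factors, T was marked over 1023 bp in endoderm (12.4-fold, rank 11777) and 1859 bp in mesoderm (12.5-fold, rank 12174). Eomes was marked over 2760 and 2685 bp (20.7-fold, rank 5057, and 19.03-fold, rank 7088). Mesp1, the early factor of cardiac mesoderm, had low-ranked peaks in both, of 370 bp at 5.53-fold (rank 19602) in endoderm and 827 bp at 4.33-fold (rank 24095) in mesoderm, and in WT a peak in mesoderm only. Tbx6 had none in the window, the nearest being 3771 and 3790 bp away. Kdr, the VEGF receptor of endothelial and blood progenitors, was at 14.1-fold (rank 10417, 934 bp) in endoderm and 19.4-fold (rank 6784, 1187 bp) in mesoderm. Pdgfra, the PDGF receptor of paraxial mesoderm, was marked by a peak of 190 bp in endoderm and 709 bp in mesoderm at 7.26-fold and 7.64-fold, with 343 and 1011 bases covered within 2500 bp of the start. Foxc1, a factor of paraxial mesoderm, had peaks of 956 and 2743 bp, with 1928 and 2743 bases covered. Hand1, of lateral mesoderm, was near the foot of both lists at 2.83-fold (rank 25185) and 4.15-fold (rank 24469). Pdgfra, Hand1, Wnt3a, Gata2 and Tbx1 were marked in mesoderm only in WT and in both lineages here. Cdx1, a caudal homeobox gene, was marked in mesoderm only in arid4b-delta (274 bp, 5.82-fold, rank 19254), with H3K27me3 in both lineages.

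Pou5f1 and Sox2, core factors of pluripotency, had wide H3K4me3 domains in both lineages. Pou5f1 was marked over 3170 bp in endoderm (27.9-fold, rank 1094) and 3772 bp in mesoderm (21.8-fold, rank 4979). The widest Sox2 peak was 2428 bp in endoderm (18.8-fold, rank 6490) and 4996 bp in mesoderm (22.3-fold, rank 4629), while within 2500 bp of its start 3770 and 4413 bases were covered. Nanog was lower, at 6.98-fold (rank 16970, 1355 bp) and 6.50-fold (rank 17995, 1746 bp), and in WT was marked in endoderm only, at 5.47-fold. Of 16 general pluripotency genes 14 were marked in each lineage, and Dppa2 and Dppa4 in neither. Arid4b itself had a promoter peak in both arid4b-delta lists, of 1700 bp at 26.9-fold (rank 1465) and 1869 bp at 27.05-fold (rank 1870), and in WT at 11.4-fold and 16.0-fold. With the extent of the deletion not stated, no peak here serves as a check of genotype.

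The Hox genes, which pattern the body axis and lie in 4 clusters under Polycomb control, held the most promoters of one lineage among the lists. Of 39 Hox promoters 26 were marked in endoderm and 31 in mesoderm. Hoxd10 was marked in endoderm only (2.56%), and Hoxa2, Hoxa6, Hoxa10, Hoxb1, Hoxc10 and Hoxc12 in mesoderm only (15.4%). Over all genes these shares were 0.356% and 1.32%. All 39 carried H3K27me3 in both lineages and none carried H3K27ac. Over all promoters H3K27me3 lay at 16.8% in endoderm and 16.0% in mesoderm. Hoxa2, Hoxa6 and Hoxa10 had the same H3K27me3 folds (2.69 in endoderm and 2.70 in mesoderm), so the 39 are not all separate calls. In WT 7 were marked in endoderm and 25 in mesoderm. Of the 18 Hox promoters marked in mesoderm only in WT, 13 were marked in both lineages in arid4b-delta, 2 in mesoderm only, 1 in endoderm only and 2 in neither.

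The one-lineage Hox peaks were short and low in rank. Hoxc10 (chr15:102966799-102967139, 341 bp) had 8.01-fold enrichment and rank 16026, Hoxc12 (chr15:102936822-102937234, 413 bp) 7.09-fold and rank 17140, and Hoxa6 (chr6:52208405-52208726, 322 bp) 5.69-fold and rank 19647. Hoxa2 was at 5.25-fold and rank 20614, Hoxb1 at 4.34-fold and rank 24055 and Hoxa10 at 3.45-fold and rank 26166 of 26852. The nearest endoderm peak lay 4184 bp from the start of Hoxa6, 4506 bp from Hoxa10 and 10196 bp from Hoxc10. The one endoderm-only peak, at Hoxd10 (chr2:74691527-74691728, 202 bp), had 5.71-fold enrichment and rank 19264 of 25272, with the nearest mesoderm peak 5816 bp away. At Hox genes marked in both, the widest peak was mostly wider in mesoderm. Hoxd8 had 551 bp in endoderm and 1335 bp in mesoderm, Hoxb9 232 and 1278 bp, and Hoxa13 372 and 1148 bp, while Hoxa4 was nearly level at 527 and 533 bp.

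Across whole clusters, mesoderm peaks covered more of the sequence in all 4. Hoxa was covered over 5.99% of its length in endoderm and 9.47% in mesoderm, Hoxb over 4.56% and 6.96%, Hoxc over 5.65% and 8.74%, and Hoxd over 7.595% and 10.2%. In WT endoderm coverage ranged from 0.491% at Hoxc to 1.64% at Hoxa, and in WT mesoderm from 3.54% at Hoxc to 13.4% at Hoxa. Mesoderm over endoderm, the covered bases came to a ratio of 1.35 to 1.58 over the 4 clusters in arid4b-delta and 7.21 to 11.9 in WT, and this difference between genotypes was not tested. Over all peaks, mesoderm covered 23.6 Mb and endoderm 21.0 Mb in arid4b-delta, and 16.3 and 12.6 Mb in WT.

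**Figure D4:**
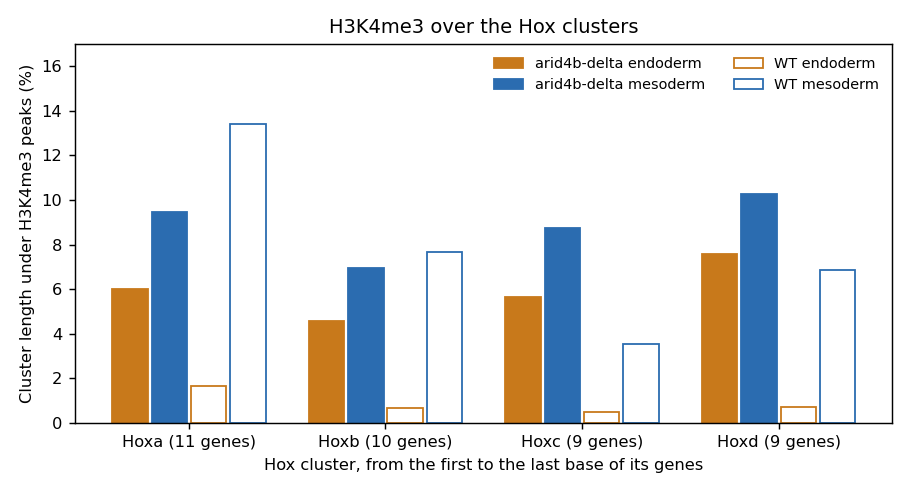
The share of each Hox cluster's length under H3K4me3 peaks (y axis, percent; x axis, cluster with its number of genes), 1 library per bar. Filled bars are arid4b-delta and open bars WT; arid4b-delta endoderm stands at 4.56 to 7.595% and WT endoderm at 0.491 to 1.64%.

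Of 147 genes of the Wnt, Nodal and BMP, FGF, and Notch, retinoic acid and hedgehog pathways, 131 were marked in endoderm and 132 in mesoderm, with 1 (0.680%) in endoderm only and 2 (1.36%) in mesoderm only, near the 0.356% and 1.32% of all genes. In WT 113 and 125 were marked. Bmpr1b, a BMP receptor gene, had a 146 bp endoderm peak at 3.91-fold and rank 24031 of 25272. The ligand genes Bmp4 (4.36-fold, rank 23691) and Gdf3 (4.10-fold, rank 24550) were marked in mesoderm only, and an endoderm peak lay 1788 bp from the start of Bmp4. The 34 Notch, retinoic acid and hedgehog promoters marked in both lineages had a median log2 width ratio, mesoderm over endoderm, of 0.12, the same as over all promoters marked in both. By the widest peak 9 of them were more than 2-fold wider in mesoderm, and by bases covered within 2500 bp of the start 2. Crabp2, a retinoic acid binding protein gene chosen after its values were seen, had 200 bases covered in endoderm and 1523 in mesoderm, and Rarb, a retinoic acid receptor gene chosen likewise, 216 and 770.

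Of 23 genes of epithelial junctions and keratins, Cldn1 alone was marked in one lineage only. It had a mesoderm peak (chr16:26371523-26371834, 312 bp, 7.27-fold, rank 16883) with the nearest endoderm peak 209401 bp away. Of 16 germline genes 1 was marked in endoderm and 3 in mesoderm, the 2 more being Ddx4, the germ cell RNA helicase (257 bp, 6.69-fold, rank 17664), and Dnd1 (5.53-fold, rank 19943). At Ddx4 H3K27me3 lay in both lineages, at 3.08-fold in endoderm and 6.58-fold in mesoderm. Esam, an endothelial adhesion gene, was at 4.65-fold (rank 22919), and Plat, a protease gene of extraembryonic endoderm, at 3.63-fold (rank 25835). Ash2l, a subunit of the H3K4 methyltransferase complexes, was at 2.58-fold and rank 26823, close to the foot of the mesoderm list. The Ash2l start was a gene end chosen by H3K4me3 coverage, and its peak also lay in the Kcnu1 window. The nearest endoderm peak lay 5801 bp from that end, and the nearest WT peaks 5864 and 5929 bp. Whether Ash2l has another start there was not examined, so this row does not show that the gene lacks the mark in endoderm. Of 24 neuroectoderm genes 23 and 24 were marked, and Neurod1 was the 1 gene of mesoderm only, with an endoderm peak 2320 bp from its start. All 20 Sin3-HDAC genes and all 27 Polycomb genes were marked in both lineages. Of the 20 listed genes marked in mesoderm only, 15 had no endoderm peak within 2500 bp of the start and 15 carried H3K27me3 in mesoderm. Of all 289 mesoderm-only promoters, 255 had no endoderm peak within 2500 bp and 50.9% carried H3K27me3 in mesoderm. Of all 512 listed genes, 283 carried H3K27me3 in mesoderm.

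At the 13101 promoters marked in both lineages, peaks were slightly wider in mesoderm. The widest peak in the window had a median width of 1192 bp in endoderm and 1347 bp in mesoderm. The log2 ratio of mesoderm over endoderm width had a median of 0.12 (quartiles -0.02 and 0.34), and 71.4% of promoters were wider in mesoderm. More than 2-fold wider were 595 in mesoderm and 82 in endoderm. Counted as bases covered within 2500 bp of the start, which ignores how a domain is split into peaks, the numbers were 198 and 18. In WT the median log2 ratio was 0.37, with 84.4% wider in mesoderm. Width depends on depth, which is unknown, and its part was not tested. By list, the median log2 ratio was 0.40 for 25 Hox promoters (22 wider in mesoderm), 0.39 for 23 neuroectoderm promoters (22 wider), 0.19 for 17 definitive endoderm promoters (11 wider) and 0.04 for 20 Sin3-HDAC promoters (12 wider).

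The largest width ratios were of 2 kinds. Toward mesoderm, Plxnd1, a semaphorin receptor gene, had 511 bp in endoderm and 2054 bp in mesoderm, with 1292 and 2054 bases covered within 2500 bp of the start. Mmp24, a membrane metalloprotease gene, had 349 and 1221 bp, with 554 and 1221 bases covered. Zfp771 had 420 and 1669 bp, with 1205 and 1669 bases covered. Creb1, a cyclic AMP response factor gene, had 702 and 2428 bp, but 2227 and 2428 bases were covered, so its endoderm domain was split into several peaks. Zfp36l1, an RNA-binding protein gene, had 1686 bp in endoderm and the widest mesoderm peak of the promoters at 5710 bp, with 3928 and 4739 bases covered. Toward endoderm, the bases covered were much closer than the widths at 4 of the 5 largest ratios, where mesoderm had more than 1 peak: Zfp521 had 2888 and 985 bp but 2751 and 2879 bases covered, Tfap4 3420 and 1235 bp but 2677 and 2637, and Setd1b, an H3K4 methyltransferase gene, 3104 and 1234 bp but 4227 and 4111, and H2-DMa, a class II antigen processing gene, 7243 and 2644 bp but 3816 and 3361. Bpnt1 had 1372 and 540 bp with 1552 and 982 bases covered. The widest endoderm peak spanned the neighbouring starts of Brd2 and H2-DMa (chr17:34116638-34123880, 7243 bp, rank 982). The next in endoderm were at Tnrc18 (5834 bp), Ajuba (5252 bp), Anp32a (4921 bp) and Foxo3 (4764 bp), and in mesoderm at Arid2 (5625 bp), Ajuba (5405 bp), Bahcc1 (5281 bp) and Marcks (5164 bp).

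The position of the mark differed little between lineages. At 8379 promoters marked in both lineages with 1 start of known strand, the summit of the widest peak lay at a median of 166 bp downstream of the start in endoderm (quartiles 106 and 266) and 161 bp in mesoderm (106 and 257). The summit was downstream in 83.2% and 82.9%. The difference, mesoderm minus endoderm, had a median of -1 bp (quartiles -42 and 37). In 68.5% (67.5 to 69.5) of promoters the summits were within 100 bp of each other, and in 99.0% within 1000 bp.

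**Figure D5:**
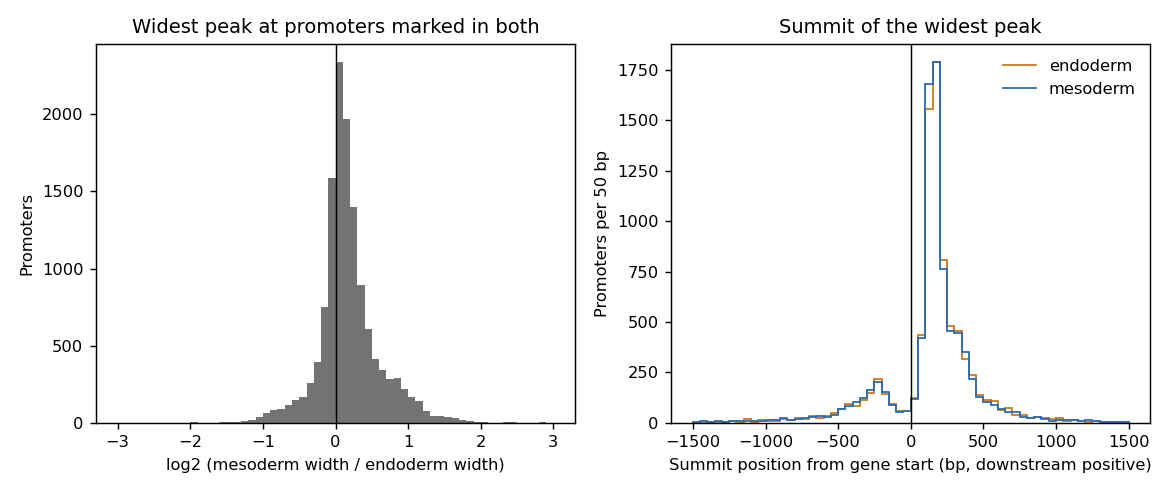
Left, the number of promoters (y axis) by log2 of mesoderm over endoderm width of the widest peak (x axis) at 13101 promoters marked in both lineages, with the median at 0.12, right of the line at 0. Right, the number of promoters per 50 bp (y axis) by summit position from the gene start (x axis, bp, downstream positive) for 8379 promoters, where the endoderm and mesoderm lines nearly coincide with medians of 166 and 161 bp.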

How the data were processed

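Peak lists were the starting point: narrow peaks for H3K4me3 and H3K27ac and broad peaks for H3K27me3, 1 per library. Per the submitters' processing notes the tools were Bowtie2, Picard and MACS2 on build mm10, and versions and settings are not given in the sources used here. Each deposited list gives the authors' score, the authors' fold enrichment (a ratio to background), the authors' -log10 p and q values and, in narrow lists, the authors' summit, in bp counted from where a peak begins. Folds were used to rank peaks within a list, with -log10 q for ties, and folds printed from different lists were not compared as levels. The lowest -log10 q was 0.317 in the endoderm and 0.358 in the mesoderm arid4b-delta H3K27me3 list. In the arid4b-delta H3K4me3 lists it was 2.07 and 2.06, and in the H3K27ac lists 2.02 and 2.05. H3K27me3 was thus called at a looser limit than the other marks. Depth per sample is not in a peak list, so precision rests on the number of peaks alone. The 24 endoderm and 27 mesoderm H3K4me3 peaks outside chromosomes 1 to 19, X and Y were left out of overlaps. Input samples and the WT H3K27ac and H3K27me3 lists were not used here.

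Promoters were 1000 bp either side of the start of 21887 protein-coding RefSeq genes (GRCm38.p6). Strand and start came from the promoter table for 17492 genes. For 2646 the start was the gene end with more H3K4me3 in the 4 lists, and 1749 kept both ends. Exons and introns were not analysed here.

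Groups came from the sample titles. Overlaps, widths and summits were computed with Python 3.11.15, numpy 2.4.6, pandas 2.3.3, scipy 1.17.1 and matplotlib 3.10.9, and the overlap functions were tested on simulated data. The 2 libraries compared were set by their labels. The comparison was proposed, and the 25 gene lists (512 genes) chosen, with earlier results of these data known. Genes were named by rule, per direction: up to 15 listed genes marked in one lineage only with no peak of the other within 2500 bp; the 10 highest-ranked with none within 5000 bp; the 5 largest width ratios with both peaks in the upper 50% of their lists, and the 5 widest peaks; and 13 genes whatever their values (Arid4b, Pou5f1, Nanog, Sox2, T, Eomes, Mesp1, Tbx6, Kdr, Sox17, Foxa2, Gata4, Gata6). Other genes were named after their values were seen. Unnamed symbols were counted only, and a result that stays in the counts is not reported here. Alternatives covered list length, rank, width, window, overlap, chromosomes and starts.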

Additional observations from a re-analysis of the deposited data

Results flagged for a closer look

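A total of 14 promoters were marked in one lineage only in both genotypes but in opposite lineages, and the difference was not tested. One of them was Hoxd10, a gene of the Hox clusters. Hoxd10 was marked in endoderm only in arid4b-delta, at 5.71-fold, and in mesoderm only in WT, at 4.77-fold.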

How the results depend on the processing

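Of 56 recomputed values, 21 of the main results and 1 other moved beyond their set limits, and 31 and 3 did not. A reversal could be called only for the mesoderm share of one-lineage promoters and the share wider in mesoderm, and neither reversed. The mesoderm share of promoters marked in one lineage only was 70.3% with lists of equal length, 72.1% with the upper 50% of each list and 84.0% with at least 500 bp of the window covered. The counts of such promoters were 349 in endoderm and 901 in mesoderm with the upper 50% of each list, and 130 and 515 with peaks of at least 500 bp. The shares of endoderm and mesoderm peaks that were shared were 90.2% and 76.3% when 50% of the peak had to be covered, 97.1% and 90.5% within 1000 bp, 91.4% and 84.1% with lists of equal length, 94.4% and 86.5% with the upper 50% of each list, and 97.2% and 90.2% with peaks of at least 500 bp. With the upper 50% of the own list against the full other list, an alternative chosen after seeing the data, both were 99.99%. The share of promoters wider in mesoderm was 74.9% by bases covered within 2500 bp and 72.7% with peaks joined over gaps. The cause of these shifts was not tested. No paired analysis was possible because each group has 1 library, and for the same reason no replicate could be left out. Depth is unknown, and nearly all peaks of one lineage lay in the lower 50% of their lists.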
